A study of Mus musculus with 69 samples.

Results

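The difference between females and males in the response of the liver to chronic rapamycin (Rapa) was measured as (Rapa minus control in females) minus (Rapa minus control in males), the interaction of diet and sex. All 69 arrays of the series entered it: 21 Rapa females, 16 control females, 13 Rapa males and 19 control males. The mice were C57BL6/J and 25 months old. Rapa mice had eaten 14 ppm encapsulated rapamycin for 21 months from the age of 4 months, and control mice the same chow with the empty Eudragit capsule. The sample titles split the Rapa males into Rapa-2 (6) and Rapa-1 (7) males, a division the study made from the expression values of these arrays, so the interaction was also fitted without the Rapa-1 males (62 arrays) and without the Rapa-2 males (63 arrays). P-values of those 2 fits are therefore descriptive.

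Rapamycin binds FKBP12 and inhibits mTORC1, the raptor-containing complex of the kinase mTOR, which promotes protein synthesis and restrains autophagy. Long exposure can also impair mTORC2, the rictor-containing complex. Mouse liver is strongly dimorphic by sex, largely because growth hormone is released in pulses in males and more evenly in females. Signalling from the growth hormone receptor through JAK2 and STAT5 sets the level of many cytochrome P450, sulfotransferase and secreted protein genes.

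Each liver RNA was hybridized to an Illumina bead array, and values are log2 signals after quantile normalization of 25697 probes. A higher interaction means that the Rapa minus control difference was higher in females than in males. Hepatocyte markers summed to 18.2 to 18.5 on the log2 scale on all arrays. Xist, transcribed from the inactive X, was detected on all 37 female arrays and on no male array. Before normalization the median signal of an array ran from 87.9 to 116.5 in Rapa females, from 92.4 to 119.0 in control females, from 84.0 to 96.8 in Rapa-2 males, from 116.8 to 130.8 in Rapa-1 males and from 113.8 to 146.0 in control males. Rapa-2 males thus lay below all other males and overlapped the females. The interaction of this array median was 20.1 (permutation test of diet within sex, two-sided, 100000 resamples, adjusted p = 0.00831). The share of detected probes averaged 39.8% in Rapa females, 43.6% in control females, 42.3% in Rapa males and 43.8% in control males, with an interaction of -2.31 percentage points (permutation test, adjusted p = 0.0243). The part of these array measures in the results below was not tested beyond the fits named with them.

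Of 12442 tested transcripts, 2543 passed the interaction at an adjusted p under 0.05, 1390 higher in females than in males (11.2% of those tested) and 1153 lower (9.27%; limma with Benjamini-Hochberg adjustment). This was 20.4% of all tested transcripts, and the median size of a passing difference was 0.32 on the log2 scale. Only 18 transcripts differed by more than 2-fold, 10 higher and 8 lower. Among the 8729 genes represented by their brightest probe, 907 passed higher (10.4%) and 863 lower (9.89%). Most of the passing transcripts had a diet effect in females and none that passed in males: at an adjusted p under 0.05 and a change over 15%, 1867 passed in females alone (73.4%), 99 in males alone (3.9%), 172 in both sexes in the same direction, 5 in opposite directions and 400 in neither sex. The diet effect itself passed for 4774 transcripts in females (38.4%) and 1471 in males (11.8%). The labels give animal numbers but no batch. Each sex and diet held its own runs of neighbouring animal numbers, 7 runs in all. The Rapa-1 males all had lower numbers than the Rapa-2 males, and these sets were taken as separate runs. The run therefore also follows the division made from the expression values. With the run as a random block (correlation 0.194) 0 transcripts passed the interaction at the adjusted threshold, while 1132 had an unadjusted p under 0.05. After adjustment for the percent of probes detected, 492 passed.

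**Figure D1:**
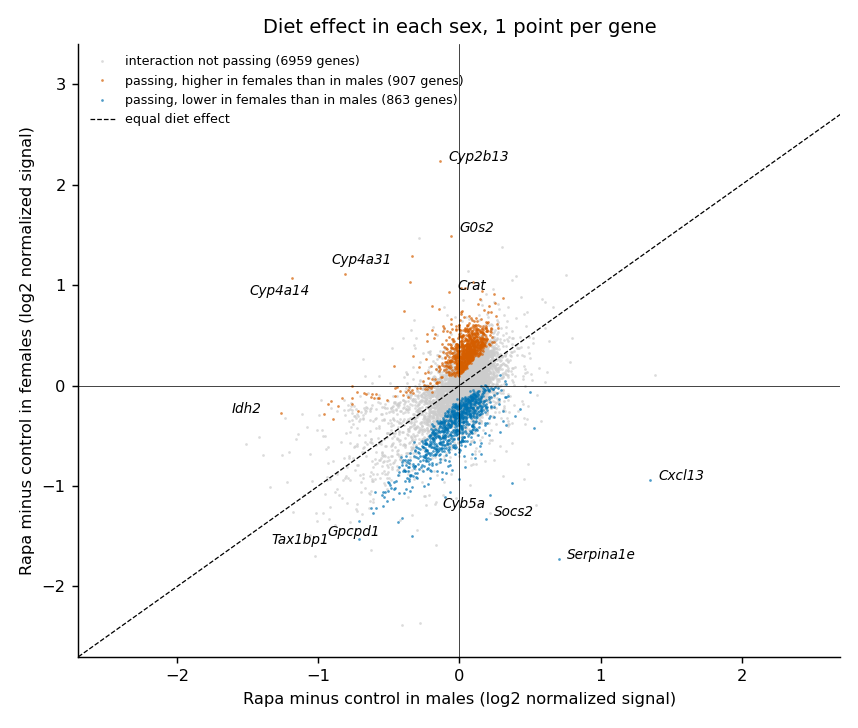
Diet effect in females (vertical axis, Rapa minus control, log2 normalized signal) against that in males (horizontal axis), 1 point per gene, with the dashed line where both are equal. The 907 genes passing higher lie above the line and the 863 passing lower lie below it, and the passing points spread more along the female axis than along the male axis.

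The largest positive differences were in cytochrome P450 genes of the Cyp2b and Cyp4a families. Most P450 genes did not pass. Of 37 tested genes of P450 families 1 to 4, 6 passed higher (16.2%) and 2 lower (5.41%), beside 10.4% and 9.89% of all genes, with a median interaction of 0.14. Cyp2b13, which encodes a P450 enzyme of steroid and drug metabolism that is female-biased in mouse liver, had a normalized log2 signal of 6.67 to 13.83 (median 12.14) in Rapa females and 6.35 to 12.91 (median 9.29) in control females, and of 6.58 to 10.55 (median 7.35) in Rapa males and 6.46 to 10.26 (median 7.47) in control males. Most Rapa females were high and most males of either diet were near the bottom of the range, but control females spanned nearly the whole range, so the female groups overlapped. The diet effect was 2.23 ± 0.54 in females (SE, adjusted p = 0.000351) and -0.14 ± 0.59 in males (adjusted p = 0.901), and the interaction was 2.37 ± 0.80 (adjusted p = 0.0287). Its neighbour Cyp2b23 had medians of 11.66 in Rapa females, 10.11 in control females, 8.09 in Rapa males and 8.39 in control males, with an interaction of 1.63 ± 0.57 (adjusted p = 0.0337). In both genes 1 animal, Rapa-1 male 5, stood far above the other Rapa-1 males, at 10.55 for Cyp2b13 and 11.31 for Cyp2b23. Without it the interactions were 2.62 and 1.88, and without all Rapa-2 males neither passed (2.09, adjusted p = 0.0739, and 1.40, adjusted p = 0.0895). Neither passed against just the control females numbered F682 to F695 (2.45, adjusted p = 0.0798, and 1.57, adjusted p = 0.115). After adjustment for the percent of probes detected they were at 2.07 (adjusted p = 0.16) and 1.25 (adjusted p = 0.231). Probes of close Cyp2b paralogs may share hybridizing RNA, which was not tested.

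Since Cyp2b13 and Cyp2b23 had the same direction in the same groups, the 250 bases before their start sites are shown (RefSeq, GRCm38.p6), read 5′ to 3′ on the strand of the gene. Capitals mark AGGTCA, the hexamer that many nuclear receptors bind, searched on both strands. Cyp2b13 lies on the plus strand at chr7:26061245-26061494, with the hexamer starting at -138, and Cyp2b23 on the minus strand at chr7:26686431-26686680, with the hexamer starting at -164.
Cyp2b13: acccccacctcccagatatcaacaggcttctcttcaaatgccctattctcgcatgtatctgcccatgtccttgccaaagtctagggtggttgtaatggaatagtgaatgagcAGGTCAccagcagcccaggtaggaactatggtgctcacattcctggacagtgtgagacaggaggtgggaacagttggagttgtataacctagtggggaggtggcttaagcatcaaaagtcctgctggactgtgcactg
Cyp2b23: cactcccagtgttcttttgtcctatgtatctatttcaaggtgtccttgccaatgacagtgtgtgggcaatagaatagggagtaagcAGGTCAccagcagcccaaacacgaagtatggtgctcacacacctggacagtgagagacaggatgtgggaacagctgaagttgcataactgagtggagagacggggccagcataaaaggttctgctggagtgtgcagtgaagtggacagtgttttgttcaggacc
The hexamer was present in 14.0% of 32851 mouse promoters of this length. Of the 20 genes with the highest and lowest interactions, 13 had a promoter entry, 3 of these held AGGTCA (Cxcl13 was the other) and 0 held TTCNNNGAA, the pattern of STAT sites, which 7.02% of all promoters held. A match describes letters and is not a measured binding site.

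Cyp4a14 and Cyp4a31 encode fatty acid hydroxylases of the Cyp4a family, a classical set of targets of the nuclear receptor PPARA. Cyp4a14 had a normalized log2 signal of 7.82 to 14.17 (median 12.90) in Rapa females and 7.13 to 13.97 (median 12.08) in control females, and of 7.94 to 12.94 (median 11.71) in Rapa males and 9.02 to 14.74 (median 12.72) in control males. The groups overlapped over most of their range, and neither diet effect passed by itself (1.07 ± 0.57 in females, adjusted p = 0.105, and -1.19 ± 0.62 in males, adjusted p = 0.185), whereas their difference did, at 2.25 ± 0.85 (adjusted p = 0.0481). Cyp4a31 had an interaction of 1.92 ± 0.68 (adjusted p = 0.0357), with a diet effect of 1.11 ± 0.46 in females and -0.81 ± 0.50 in males. Both estimates kept their sign without the Rapa-1 and without the Rapa-2 males, between 1.76 and 2.68, and neither passed without the Rapa-1 males (adjusted p = 0.203 for Cyp4a14 and 0.0779 for Cyp4a31).

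Genes of lipid storage and of fatty acid handling in mitochondria and peroxisomes followed. G0s2, an inhibitor of the triglyceride lipase ATGL, lay at 8.81 to 12.63 (median 11.43) in Rapa females and 7.28 to 11.46 (median 9.51) in control females, and at 8.92 to 11.81 (median 10.07) in Rapa males and 8.08 to 11.82 (median 10.46) in control males. It was above the control mean in 20 of 21 Rapa females and in 6 of 13 Rapa males. The interaction was 1.55 ± 0.50 (adjusted p = 0.0211). Crat, which transfers acetyl groups to carnitine, showed a cleaner separation in females, at 7.88 to 9.71 (median 8.91) in Rapa females and 7.27 to 8.64 (median 7.71) in control females, against 7.22 to 8.48 (median 8.12) in Rapa males and 7.35 to 9.32 (median 7.99) in control males. Of the Rapa females, 14 of 21 exceeded the highest control female. The interaction of Crat was 1.01 ± 0.23 (adjusted p = 0.00128), and it passed in all 3 fits, though its second probe gave only 0.34 (adjusted p = 0.0366). Retsat, a retinol saturase, differed by 1.38 ± 0.48 (adjusted p = 0.0345), with a second probe at 1.46. Pex11a, a peroxisome proliferation factor, differed by 1.14 ± 0.33 (adjusted p = 0.00988), with a second probe at 1.21. Inhbe, the gene of the secreted hepatokine subunit inhibin beta E, differed by 0.99 ± 0.27 (adjusted p = 0.00776). The diet effects of G0s2, Crat, Retsat, Pex11a and Inhbe were 0.75 to 1.49 in females, all passing, and -0.40 to -0.06 in males, none passing. Without the Rapa-1 males the interactions of G0s2, Retsat, Pex11a and Inhbe were 0.78 to 1.2 and none of the 4 passed. Against just the control females numbered F682 to F695 these 4 were at 0.82 to 1.21, and none passed (adjusted p from 0.0869 to 0.248). After adjustment for the percent of probes detected they were at 0.84 to 1.16, and none passed (adjusted p from 0.0829 to 0.262). Crat passed both, at 0.88 (adjusted p = 0.0273) and 0.81 (adjusted p = 0.0371).

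**Figure D2:**
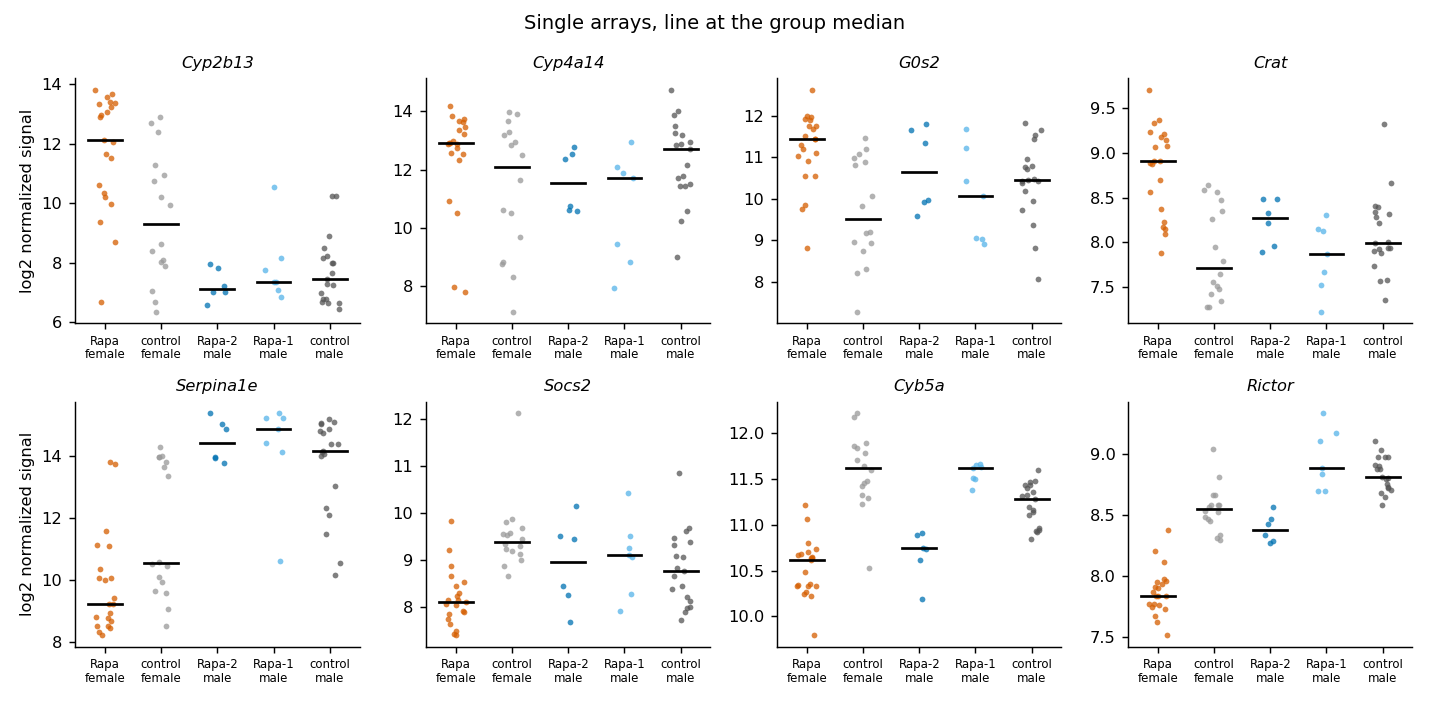
Log2 normalized signal of 8 genes on single arrays, in the columns Rapa female, control female, Rapa-2 male, Rapa-1 male and control male, with a line at each group's median. Rapa females are shifted up for Cyp2b13, G0s2 and Crat and down for Socs2, Cyb5a and Rictor, while for Cyb5a and Rictor the Rapa-2 males lie below the Rapa-1 males.

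The lowest interaction was that of Serpina1e, a male-biased member of the alpha-1-antitrypsin family of secreted protease inhibitors. Its signal was 8.22 to 13.80 (median 9.24) in Rapa females and 8.52 to 14.28 (median 10.55) in control females, and 10.61 to 15.36 (median 14.85) in Rapa males and 10.16 to 15.18 (median 14.16) in control males. The female groups shared most of their range, with 19 of 21 Rapa females under the mean of control females, while 12 of 13 Rapa males lay over the mean of control males. The diet effect was -1.73 ± 0.55 in females and 0.70 ± 0.59 in males, and the interaction -2.43 ± 0.81 (adjusted p = 0.0264). The exception among Rapa males was again Rapa-1 male 5, at 10.61, and without it the interaction was -2.74. Cxcl13, the chemokine that attracts B lymphocytes, had an interaction of -2.29 ± 0.72 (adjusted p = 0.018), with diet effects of -0.94 ± 0.49 in females and 1.35 ± 0.53 in males that each missed the threshold. After adjustment for the percent of probes detected it was at -1.01 (adjusted p = 0.395).

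Feedback genes of the growth hormone pathway were among the lowest. Socs2, an inhibitor of growth hormone receptor signalling that STAT5 induces, had a signal of 7.39 to 9.82 (median 8.11) in Rapa females and 8.65 to 12.12 (median 9.39) in control females, and of 7.68 to 10.42 (median 9.10) in Rapa males and 7.73 to 10.84 (median 8.77) in control males. In females 18 of 21 Rapa animals lay below every control, whereas the male groups covered the same range. The diet effect was -1.33 ± 0.24 in females (adjusted p = 3.5e-06) and 0.19 ± 0.26 in males (adjusted p = 0.679), and the interaction of -1.52 ± 0.36 (adjusted p = 0.00195) passed in all 3 fits, at -1.43 without Rapa-1 and -1.59 without Rapa-2 males. Cish, a related inhibitor, had medians of 9.00 in Rapa females, 9.55 in control females, 9.03 in Rapa males and 8.50 in control males, and an interaction of -0.95 ± 0.30 (adjusted p = 0.0193). For Cish the estimate was -1.43 without the Rapa-1 males and -0.54 without the Rapa-2 males, where it did not pass (adjusted p = 0.14). Ghr, the receptor itself, fell in Rapa females by 0.86 ± 0.12, with a male diet effect of -0.12 ± 0.13 and an interaction of -0.74 ± 0.18 (adjusted p = 0.00238). Every Rapa female was under the control mean for Ghr, but none was below the lowest control female, at 10.76, and a second probe gave -0.51 (adjusted p = 0.13). Of the 20 tested genes of insulin and growth hormone signalling, 4 passed lower (20.0%), namely Socs2, Cish, Ghr and the kinase Jak2 at -0.31, and 1 passed higher, the transcription factor Stat5a at 0.32.

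Egfr, the receptor of epidermal growth factor and a male-biased gene in mouse liver, had medians of 9.16 in Rapa females, 10.78 in control females, 11.10 in Rapa males and 10.93 in control males. In females 9 of 21 Rapa animals lay below every control, and the male groups overlapped. The interaction was -1.31 ± 0.49 (adjusted p = 0.0458), and -0.82 (adjusted p = 0.282) against just the control females numbered F682 to F695. Gpcpd1, a glycerophosphocholine phosphodiesterase, was at 7.58 to 9.42 (median 8.10) in Rapa females and 8.83 to 12.71 (median 9.46) in control females, and at 7.69 to 10.87 (median 8.37) in Rapa males and 8.34 to 11.65 (median 9.05) in control males. Here 19 of 21 Rapa females and 5 of 6 Rapa-2 males lay below every control of their sex, against 1 of 7 Rapa-1 males. Its interaction of -1.16 ± 0.38 (adjusted p = 0.0244) was accordingly -0.41 (adjusted p = 0.501) without the Rapa-1 males and -1.81 (adjusted p = 0.000458) without the Rapa-2 males. Cyb5a, the electron donor cytochrome b5 of the endoplasmic reticulum, had the smallest adjusted p among the 20 genes at the ends of the order, with an interaction of -1.0 ± 0.17 (adjusted p = 7.49e-05). Its signal was 9.79 to 11.22 in Rapa females, 10.53 to 12.22 in control females, 10.19 to 10.91 in Rapa-2 males, 11.38 to 11.67 in Rapa-1 males and 10.84 to 11.60 in control males. All 21 Rapa females and all 6 Rapa-2 males were under the mean of their controls, and all 7 Rapa-1 males were over it. Dnajc12, a DNAJ cochaperone, differed by -1.34 ± 0.48, Tmsb4x, the actin-binding thymosin beta 4, by -1.01 ± 0.33, and Plac8, a small cysteine-rich protein of leukocytes and epithelia, by -0.92 ± 0.33. After adjustment for the percent of probes detected, Tmsb4x was at -0.21 (adjusted p = 0.674) and Plac8 at -0.46 (adjusted p = 0.439).

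**Figure D3:**
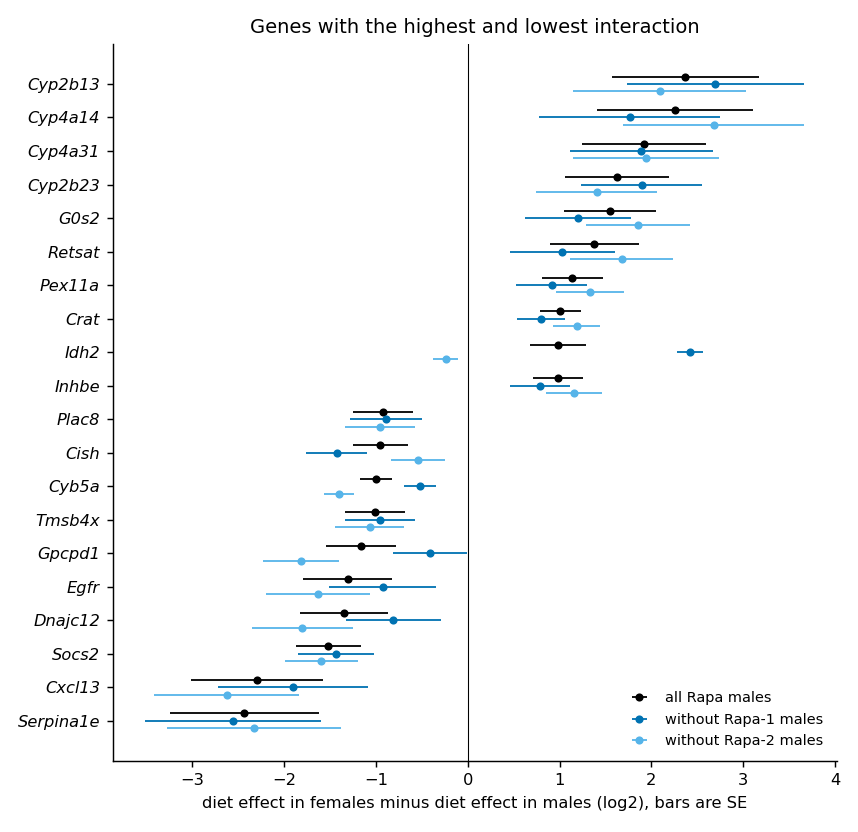
Diet effect in females minus diet effect in males (log2, horizontal axis) for the 10 highest and 10 lowest genes, with bars of 1 SE, fitted with all Rapa males, without the Rapa-1 males and without the Rapa-2 males. All but Idh2 keep their side of 0 in the 3 fits, and Idh2 moves from 2.42 without Rapa-1 males to -0.24 without Rapa-2 males.

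Genes of the mTOR complexes and their regulators did not move as a group. Of 22 tested, 4 passed higher (18.2%) and 2 lower (9.09%), and the median interaction was 0.06 beside -0.00 for all genes. Rictor, the defining subunit of mTORC2, had a signal of 7.51 to 8.37 (median 7.83) in Rapa females and 8.29 to 9.04 (median 8.54) in control females, and of 8.27 to 8.56 (median 8.38) in Rapa-2 males, 8.69 to 9.33 (median 8.88) in Rapa-1 males and 8.58 to 9.10 (median 8.81) in control males. In females 20 of 21 Rapa animals lay below every control, all 6 Rapa-2 males did so in males, and no Rapa-1 male did. The interaction was -0.55 ± 0.11 (adjusted p = 0.000289), and it was -0.24 (adjusted p = 0.0728) without the Rapa-1 males. Lamtor4, a subunit of the Ragulator that tethers mTORC1 to lysosomes, was higher in Rapa females (11.73 to 12.27) than in control females (11.05 to 11.87), while Rapa males (11.81 to 12.23) and control males (11.65 to 12.30) overlapped. Its interaction of 0.48 ± 0.08 (adjusted p = 3.94e-05) passed in all 3 fits, and 18 of 21 Rapa females exceeded every control female. Rheb, the small GTPase that activates mTORC1, fell in both sexes, by 0.84 ± 0.07 in females and by 0.39 ± 0.08 in males, with an interaction of -0.45 ± 0.11 (adjusted p = 0.00253). The inhibitor Tsc2 (0.40), the translation repressor Eif4ebp2 (0.33) and the shared subunit Mlst8 (0.24) passed higher. Mtor itself had a diet effect of 0.30 ± 0.06 in females and 0.15 ± 0.07 in males, and the interaction of 0.15 ± 0.09 did not pass (adjusted p = 0.257). Rptor was not among the tested genes.

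Among the lists other than cell type markers, those of fatty acid oxidation and of respiratory complexes I to IV had the highest shares passing higher. Of 24 tested fatty acid oxidation genes, 9 passed higher (37.5%) and 0 lower, beside 10.4% and 9.89% of all genes, and the median interaction was 0.45. Etfb, which passes electrons from acyl-CoA dehydrogenases to the respiratory chain, had the smallest adjusted p. Its signal was 13.01 to 13.89 (median 13.61) in Rapa females and 12.29 to 13.29 (median 12.89) in control females, and 12.93 to 13.41 (median 13.17) in Rapa males and 12.85 to 13.52 (median 13.20) in control males. Only the female groups separated, with 20 of 21 Rapa females above every control female. The interaction of Etfb was 0.73 ± 0.11 (adjusted p = 5.64e-06), 0.56 on a second probe, and it passed in all 3 fits. The others passing were the dienoyl-CoA reductases Decr1 (0.93 ± 0.28) and Decr2 (0.72 ± 0.23), the isomerase Eci1 (0.75 ± 0.28), the carnitine carrier Slc25a20 (0.66 ± 0.21), Cpt2 (0.65 ± 0.21), which releases fatty acids from carnitine, the short-chain dehydrogenase Acads (0.55 ± 0.15), the thiolase Acaa2 (0.49 ± 0.17) and the peroxisomal Hsd17b4 (0.42 ± 0.15). Diet effects of these 24 genes had a median of 0.32 in females and of -0.12 in males, and 13 passed higher and 4 lower in females, against 0 and 3 in males. Over all genes the diet effect passed higher for 19.5% and lower for 18.5% in females, and higher for 2.82% and lower for 8.09% in males. Of the 24, 5 passed higher and 0 lower without the Rapa-1 males, beside 9.82% and 9.78% of all transcripts in that fit. Without the Rapa-2 males 11 passed higher and 1 lower, beside 20.0% and 16.4% of all transcripts. Hadhb, the thiolase subunit of the trifunctional protein, was at 0.93 ± 0.35 with an adjusted p of 0.0504 and belongs with the transcripts low in Rapa-2 males described further on.

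Subunits of respiratory complex I passed higher in 11 of 33 tested genes (33.3%) and lower in 1, and complexes II to IV in 6 of 23 (26.1%) and 0. Without the Rapa-1 males complex I had 7 higher and 1 lower, and complexes II to IV 4 and 0, beside 9.82% and 9.78% of all transcripts. Without the Rapa-2 males complex I had 16 higher and 5 lower, and complexes II to IV 10 and 5, beside 20.0% and 16.4% of all transcripts. Ndufs6 of complex I had a signal of 13.10 to 13.67 (median 13.36) in Rapa females and 12.28 to 13.27 (median 12.90) in control females, and of 12.63 to 13.52 (median 13.17) in Rapa males and 12.82 to 13.33 (median 13.12) in control males. Rapa females lay mostly above control females, the male groups overlapped, and the interaction was 0.47 ± 0.09 (adjusted p = 0.000263). Ndufa1, an X-linked subunit of the same complex, went the other way, at -0.48 ± 0.09 (adjusted p = 0.000194). Cox6b1 (0.44 ± 0.11) and Cox8a (0.34 ± 0.09) were the members of complex IV with the smallest adjusted p. Of 14 ATP synthase genes, 3 passed higher, with the ring subunit gene Atp5g1 at 0.60 ± 0.11, and 1 lower, Atp5h at -0.40 ± 0.10. Under median scaling in place of quantile normalization the median of all tested transcripts moved to -0.18 and only 6.87% of 4253 passing transcripts were higher, against 54.7% of 2543. Relative to the median of all genes under that scaling the list medians were 0.34 for fatty acid oxidation, 0.10 for complex I and 0.08 for complexes II to IV, but just 1 gene of each list still passed higher, and Cox8a was at -0.0023.

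Cytosolic ribosomal protein genes passed lower more often than higher with all Rapa males. Of 30 tested large subunit genes, 10 passed lower (33.3%) and 0 higher, and of 23 small subunit genes, 7 passed lower (30.4%) and 1 higher, with median interactions of -0.10 in each. Without the Rapa-1 males the large subunit had 3 genes lower and 2 higher, near the shares of all transcripts in that fit (9.78% and 9.82%), and the small subunit 8 and 1. Rps24 had a signal of 12.91 to 13.75 (median 13.27) in Rapa females and 13.25 to 14.29 (median 13.68) in control females, and of 12.94 to 13.52 (median 13.25) in Rapa males and 12.59 to 13.38 (median 13.03) in control males. It was lower in Rapa than in control females and slightly higher in Rapa than in control males, with overlap in each, and differed by -0.57 ± 0.11 (adjusted p = 0.000263). Rps25 had a passing diet effect in males alone, 0.28 ± 0.07 (adjusted p = 0.00443), beside -0.19 ± 0.07 in females, which missed the 15% change, and its interaction was -0.47 ± 0.10 in the fit of all arrays and without either set of Rapa males. Rpl36a and Rpl39 differed by -0.55 ± 0.12 and -0.67 ± 0.19. Relative to all genes under median scaling the medians were -0.22 for the large subunit and -0.26 for the small subunit. Translation factors passed in both directions, 5 higher and 6 lower of 32. The initiation factor subunit Eif3a was at 7.38 to 8.32 in Rapa females and 8.02 to 9.64 in control females, with 17 of 21 Rapa females below every control. It was at 8.27 to 8.59 in Rapa-2 males, 8.71 to 9.29 in Rapa-1 males and 8.64 to 9.25 in control males. All 6 Rapa-2 males and 0 of 7 Rapa-1 males lay below every control male. The interaction of Eif3a was -0.76 ± 0.15 (adjusted p = 0.000322). Eif5a, an elongation and termination factor, differed by 0.47 ± 0.11 (adjusted p = 0.00194), with a second probe at -0.04.

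Protein degradation lists were mixed. Of 33 proteasome genes, 8 passed higher (24.2%) and 4 lower (12.1%), with Psmd13 of the regulatory particle at 0.33 ± 0.08 and Psma4 of the core at -0.37 ± 0.08. Of 33 autophagy and lysosome genes, 4 passed higher (12.1%) and 7 lower (21.2%). Of all genes 10.4% passed higher and 9.89% lower. Without the Rapa-1 males the autophagy list had 4 higher and 3 lower and the proteasome list 6 and 3, beside 9.82% and 9.78% of all transcripts. Without the Rapa-2 males the autophagy list had 8 higher and 10 lower and the proteasome list 9 and 5, beside 20.0% and 16.4% of all transcripts. The autophagosome protein gene Gabarapl1 (0.61 ± 0.17) and the initiation factor Becn1 (0.25 ± 0.07) were higher, Becn1 with a diet effect of 0.40 ± 0.05 in females and 0.15 ± 0.05 in males, and the cargo receptor Tax1bp1 was lower (-0.82 ± 0.23). Under median scaling Becn1 was at -0.037 and did not pass, and the proteasome list had 1 gene higher and 13 lower, the autophagy list 1 and 12, and the antioxidant list 0 and 9. Of all 12442 tested transcripts 292 passed higher and 3961 lower under that scaling, so lower calls were common outside these lists too.

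Other metabolic lists passed higher in a minority of members, where 10.4% of all genes passed higher and 9.89% lower. Amino acid and urea cycle genes passed higher in 6 of 25 and lower in 1, but higher in 4 and lower in 7 without the Rapa-2 males, and in 2 and 5 under median scaling. Bcat2, a transaminase of branched-chain amino acids, had a signal of 7.82 to 8.59 in Rapa females and 7.45 to 7.90 in control females, and of 7.43 to 7.88 in Rapa males and 7.25 to 7.82 in control males. Rapa females stood nearly apart from all other groups, and the interaction was 0.44 ± 0.08 (adjusted p = 0.000104). Gluconeogenesis and glycogen genes passed higher in 3 of 14, including pyruvate carboxylase, Pcx (0.42 ± 0.11), and the glucokinase regulator Gckr (0.38 ± 0.11), and 0 passed lower. Without the Rapa-2 males 3 passed higher and 4 lower, and under median scaling 0 and 2, with Pcx at 0.055 (adjusted p = 0.777) and Gckr at 0.011 (adjusted p = 0.955). Over all transcripts 20.0% passed higher and 16.4% lower without the Rapa-2 males. Under median scaling 292 of all 12442 transcripts passed higher and 3961 lower. Antioxidant genes passed higher in 6 of 28 (21.4%) and lower in 2 (7.14%), with the glutathione synthase gene Gss at 0.52 ± 0.10. Conjugation enzymes passed higher in 4 of 33 (12.1%, near the share of all genes) and lower in 1, with the glutathione transferases Gstt2 at 0.91 ± 0.32 and Gstk1 at 0.50 ± 0.13. Without the Rapa-1 males antioxidant genes had 6 higher and 1 lower, and conjugation enzymes 6 and 0, beside 9.82% and 9.78% of all transcripts. Without the Rapa-2 males these were 9 and 6, and 7 and 5. Under median scaling antioxidant genes had 0 higher and 9 lower, and conjugation enzymes 2 and 4. Lpin2, which makes diacylglycerol for triglyceride synthesis, passed through males, with a diet effect of -0.47 ± 0.13 (adjusted p = 0.00634) in males and 0.20 ± 0.12 in females, and an interaction of 0.66 ± 0.17 (adjusted p = 0.00524). Of 20 bile acid genes, 2 passed lower (10.0%, near the 9.89% of all genes), the hydroxylase Cyp2c70 (-0.70 ± 0.20) and the bile salt export pump Abcb11 (-0.56 ± 0.20), and 1 passed higher, the bile acid ligase Slc27a5 (0.27 ± 0.10). Without the Rapa-1 males 1 passed lower and 3 higher, and Abcb11 was at -0.36 (adjusted p = 0.284). Of 19 cholesterol synthesis genes, 0 passed.

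**Figure D4:**
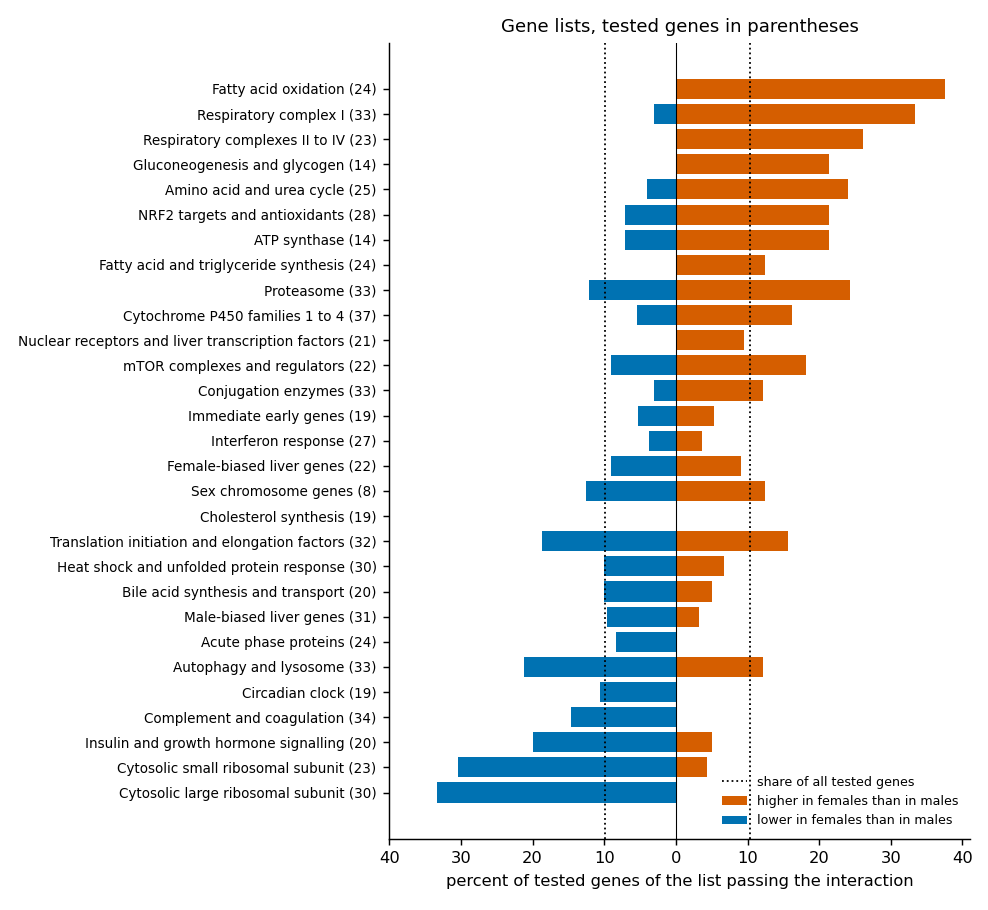
Percent of the tested genes of each list, cell type markers left out, that passed the interaction, to the right for genes higher in females than in males and to the left for genes lower, with dotted lines at the share of all tested genes (10.4% and 9.89%). Fatty acid oxidation (37.5%) and complex I (33.3%) reach furthest to the right and the large ribosomal subunit (33.3%) furthest to the left.

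Lists of sex-biased liver genes did not lean one way as wholes. Of 22 female-biased genes, 2 passed higher (Cyp2b13 and Cyp4a14) and 2 lower (Rtn4 and Lifr), and of 31 male-biased genes, 1 passed higher (Fitm1, at 0.93) and 3 lower (Serpina1e, Egfr and Hsd3b2). Not every member showed the bias of its list here. Among controls Cyp4a14 had a median of 12.08 in females and 12.72 in males, and Hsd3b2 a mean of 10.714 and 10.719. Hsd3b2, a steroid dehydrogenase, differed by -0.50 ± 0.15, by -0.90 without the Rapa-2 males and by -0.04 without the Rapa-1 males, and a second probe gave -0.14. Cyp2b13 and Serpina1e are also among the highest and lowest genes above.

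Genes of secreted defence proteins that passed with all Rapa males were lower. Of 34 complement and coagulation genes, 5 passed lower (14.7%, beside 9.89% of all genes) and 0 higher, including the mannose-binding lectin protease Masp1 (-0.59 ± 0.14) and heparin cofactor Serpind1 (-0.51 ± 0.13). Of 24 acute phase genes, 2 passed lower (8.33%, under the share of all genes), the copper carrier Cp (-0.75 ± 0.20) and the pentraxin Crp (-0.37 ± 0.14). The median of the acute phase list was nonetheless -0.61, its most negative members, Orm2 (-1.39 ± 0.87) and Saa1 (-1.26 ± 0.83), having wide errors. That median was -0.16 and 0 of 24 passed without the Rapa-1 males, and without the Rapa-2 males it was -0.84, with 8 lower and 1 higher. Over all transcripts 16.4% passed lower and 20.0% higher without the Rapa-2 males. Of the complement and coagulation genes 3 passed lower and 2 higher without the Rapa-1 males, beside 9.78% and 9.82% of all transcripts. Neutrophil markers had a median of -0.99 and 0 of 13 passed the interaction, with S100a9 at -1.98 ± 0.76 (adjusted p = 0.0524) and S100a8 at -2.08 ± 0.85 (adjusted p = 0.0681). Their diet effect passed lower for 8 of 13 in females and for 0 in males, and the summed log2 level ran from 10.9 to 16.1 in Rapa females, from 11.2 to 16.6 in control females, from 11.1 to 15.1 in Rapa males and from 10.9 to 15.8 in control males. These are whole-liver samples, so that fewer cells of a type and less RNA per cell cannot be told apart. Markers of red blood cells, platelets, lymphocytes, Kupffer cells and bile ducts had 0 passing members, while 1 of 18 endothelial markers (Flt1, -0.59 ± 0.13) and 1 of 12 stellate cell markers (Dcn, -0.52 ± 0.12) passed lower. Higher were 1 of 5 pancreas markers (Ctrl), 1 of 2 fat markers (Lep) and 3 of 13 hepatocyte markers, of which 1 more was lower. Ctrl and Lep lay near the detection limit. Ctrl was detected on 14 of 21 Rapa female and 5 of 16 control female arrays, and Lep on 4 and 0. The part of cell types in the other results was not tested.

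In 5 transcripts the diet effects passed in opposite directions, and 3 represented a gene. Nrp1, a coreceptor of semaphorins and VEGF, had a signal of 9.67 to 10.76 (median 10.02) in Rapa females and 9.73 to 10.82 (median 10.26) in control females, and of 9.79 to 10.74 (median 10.07) in Rapa males and 9.30 to 10.50 (median 9.81) in control males. The shifts were small against the spread, with 15 of 21 Rapa females under and 12 of 13 Rapa males over the mean of their controls. The diet effect was -0.25 ± 0.09 in females and 0.31 ± 0.10 in males, the interaction -0.55 ± 0.14 (adjusted p = 0.00345), and a second probe gave -0.58. Cmtm6, a regulator of PD-L1 at the cell surface, had diet effects of -0.32 ± 0.07 and 0.21 ± 0.07 in females and males and an interaction of -0.53 ± 0.10 (adjusted p = 0.000195). Klhl9, an adaptor of a CUL3 ubiquitin ligase, had -0.20 ± 0.07 and 0.23 ± 0.08, with an interaction of -0.43 ± 0.10 (adjusted p = 0.00267). In Klhl9 all 6 Rapa-2 males exceeded every control male, against 1 of 7 Rapa-1 males, and without the Rapa-2 males the interaction did not pass (-0.24, adjusted p = 0.0854).

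Where both sexes passed in the same direction, 145 of 172 transcripts had a lower interaction. Among genes taken by their brightest probe, the largest were in Irf2, a transcription factor of the interferon response, whose signal was 9.41 to 10.51 (median 9.71) in Rapa females and 10.66 to 11.73 (median 11.06) in control females, and 10.35 to 11.97 (median 10.98) in Rapa males and 11.00 to 11.82 (median 11.45) in control males. The female groups did not overlap, and in males all 6 Rapa-2 animals and 1 of 7 Rapa-1 animals were below every control. Irf2 fell by 1.32 ± 0.11 in females and by 0.41 ± 0.12 in males, and the interaction was -0.91 ± 0.17 (adjusted p = 0.000133), -0.48 without the Rapa-1 males and -1.28 without the Rapa-2 males. Tax1bp1 (-0.82), the ribosome-associated Naca (-0.70), the small GTPase Rap1b (-0.67), the centriole protein gene Cetn3 (-0.66) and the gap junction gene Gjb2 (-0.66) followed, and for these 5 the interaction did not pass without the Rapa-1 males, from -0.33 to 0.10. Second probes of Naca and Gjb2 were at 0.22 and 0.37.

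Each fit without part of the Rapa males gave more large differences than the fit of all arrays, and the large differences lay mostly in opposite directions in the 2 fits. Without the Rapa-1 males 2439 transcripts passed (19.6%), 1222 higher (9.82%) and 1217 lower (9.78%), and 186 differed by more than 2-fold, 181 of them higher. Without the Rapa-2 males 4528 passed (36.4%), 2490 higher (20.0%) and 2038 lower (16.4%), and of 170 beyond 2-fold, 143 were lower. In these fits the male diet effect passed for 4263 transcripts (34.3%) without the Rapa-1 males and for 7 (0.0563%) without the Rapa-2 males. Of the 2543 transcripts passing with all males, 986 also passed in the same direction without the Rapa-1 males and 2139 without the Rapa-2 males, and 621 passed in all 3, 274 higher and 347 lower. Opposite directions in the fits without the Rapa-1 and without the Rapa-2 males, passing in both, were found for 567 transcripts. These were counted whether or not they passed with all males. The fits share all females and all control males.

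In several genes whose diet effect passed in males and not in females, the Rapa-2 males lay at the level of the females. Idh2, the mitochondrial isocitrate dehydrogenase, had a signal of 6.96 to 8.02 in Rapa females, 7.52 to 8.39 in control females, 7.44 to 7.75 in Rapa-2 males, 10.06 to 10.67 in Rapa-1 males and 9.99 to 10.64 in control males. Rapa-2 males fell within the range of the females, and every Rapa-1 and control male was over 2 log2 units above every Rapa-2 male. Its interaction was 0.99 ± 0.31 (adjusted p = 0.0175) with all males, 2.42 ± 0.14 without the Rapa-1 males and -0.24 ± 0.14 without the Rapa-2 males. With all males it did not pass against just the control females numbered F682 to F695 (0.94, adjusted p = 0.0988). Nor did it pass after adjustment for the percent of probes detected (0.96, adjusted p = 0.0831). Eif2s3y, a Y-linked translation initiation factor gene, was detected on no female array and had a signal of 6.85 to 7.31 in Rapa-2 males, 8.85 to 9.10 in Rapa-1 males and 8.46 to 9.21 in control males, beside 6.21 to 6.69 in the females. Rapa-2 males thus stood between the females and the other males. Its interaction was 0.76 ± 0.21 (adjusted p = 0.00757), and 1.76 and -0.10 in the fits without Rapa-1 and without Rapa-2 males. Med28 (Mediator), Esd (esterase D), Skp1 (SCF ubiquitin ligases), 0610009B22Rik and, of the urea cycle, Otc had the same arrangement, with interactions of 0.54 to 0.76 that were 1.2 to 2.02 without the Rapa-1 males and -0.34 to -0.03 without the Rapa-2 males. The Otc probe was detected on 0 of 21 Rapa female, 6 of 16 control female and 0 of 6 Rapa-2 male arrays. That of 0610009B22Rik was detected on 1, 11 and 1 of them. Low values of these 2 probes thus lay near the detection limit.

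**Figure D5:**
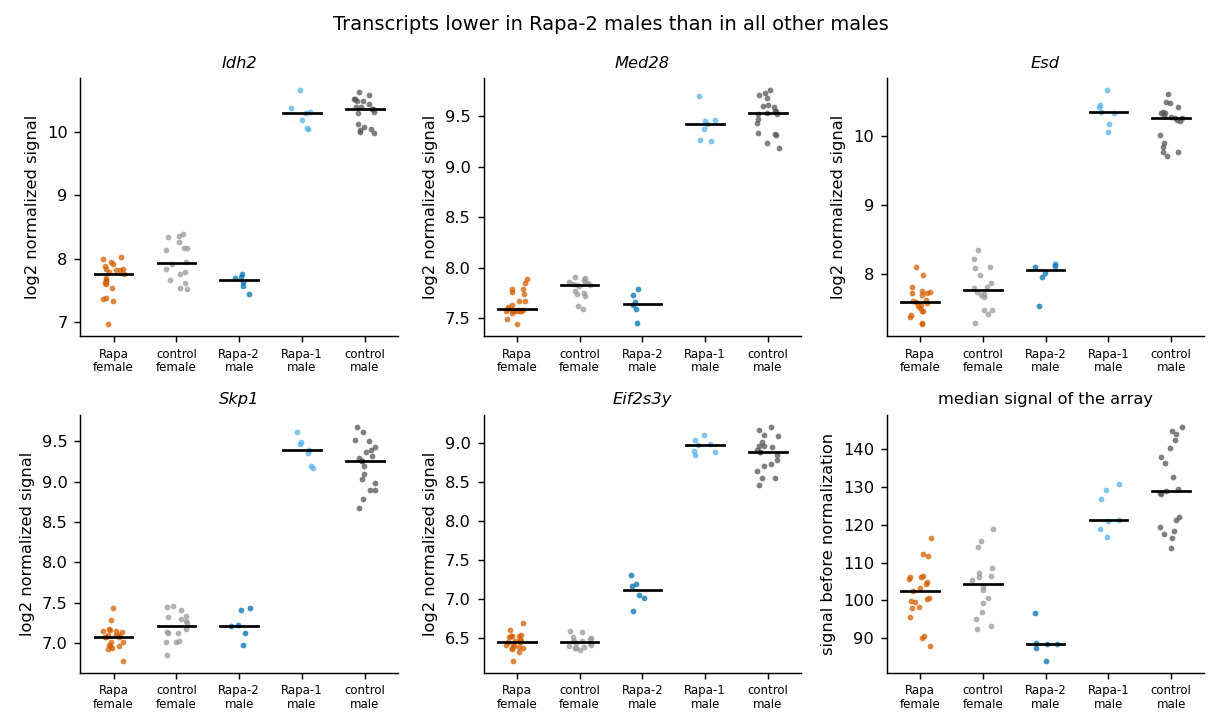
Log2 normalized signal of 5 genes and the array median before normalization (last panel) on single arrays, in the columns Rapa female, control female, Rapa-2 male, Rapa-1 male and control male, with a line at each group's median. Rapa-2 males lie with the females and apart from all Rapa-1 and control males in Idh2, Med28, Esd and Skp1, between them in Eif2s3y, and at 84.0 to 96.8 in array median against 113.8 to 146.0 in the other males.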

How the data were processed

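Total RNA of 69 livers, 1 array per mouse, was hybridized to Illumina mouse bead arrays with 25697 probes. The deposited intensities were average bead signals extracted by the authors in Genome Studio (v 1.6) without normalization. The deposited detection scores were fractions from 0 to 1 written by the same software, here read as 1 minus the detection p. The authors' processed values were log2 signals after quantile normalization, and correlated at 0.9999 with those recomputed here. The files also hold 117 empty unnamed columns. Probes detected (p under 0.05) on at least 13 arrays were kept, 12442 in all. Of all probes, 23978 had 1 gene symbol and 1719 none or several. A gene was represented by its brightest tested probe.

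All groups entered 1 linear model on log2 quantile-normalized intensities (limma 3.58.1, R 4.3.3, Benjamini-Hochberg adjustment over all tested probes), with the interaction as a contrast. The study's methods used pairwise tests with a 15% change and gave no interaction test. The 3 array measures were tested by permutation of diet within sex, two-sided, 100000 resamples, adjusted over the 3. On simulated data with known changes for the fit of all arrays, 87 of 100 changes of 1.5-fold and 98 of 100 of 2-fold were recovered, with 15 false calls. The simulated noise was independent between probes and arrays, and changes were placed in Rapa females alone. It held no runs, array brightness or division of Rapa males, so it does not give the rate of false calls under these.

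Named genes were the 10 highest and 10 lowest passing, up to 2 per list by smallest adjusted p, up to 6 with opposite directions in the sexes, 6 passing in males alone, 6 in both sexes in the same direction, and Mtor, Rictor, Rptor, Rheb, Xist and Eif2s3y. Other genes named in the text (passing members of lists, the widest acute phase and neutrophil members, and Hadhb) were chosen after their values were seen. The groups, lists and comparisons were chosen with earlier results of these data known, and leaving out a set of Rapa males follows a division made from these expression values. Alternatives were normexp with control-free quantile normalization (neqc), median scaling, the authors' values, other detection filters, a 15% minimum, array weights, separate variances, array measures as covariates, single runs of animal numbers, the run or replicate number as a block, and left-out arrays. The number of arrays limits the precision. Promoters came from RefSeq, GRCm38.p6.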

Additional observations from a re-analysis of the deposited data

Results flagged for a closer look

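In 21 of 186 pairs of a named gene and a group of Rapa-1 or Rapa-2 males, 1 animal stood apart from the others on the log2 normalized signal, where chance flags about 1 in 20 groups. The pairs share animals and are not independent. Rapa-1 male 5 was highest in Cyp2b13 (10.55, the nearest other Rapa-1 male at 8.16) and Cyp2b23 (11.31, nearest 8.32) and lowest in Serpina1e (10.61, nearest 14.13) and Mtor (7.97, nearest 8.24). Rapa-1 male 4 was highest in Plac8 (10.37, nearest 9.23) and lowest in Lamtor4 (11.81, nearest 11.99), and Rapa-1 male 3 lowest in Flt1 (8.26, nearest 8.65).

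Rapa-2 male 4 was highest in Dnajc12 (9.08, nearest 8.36), Mcl1 (10.42, nearest 10.16) and Ifi35 (8.84, nearest 8.49), and lowest in Ghr (11.18, nearest 11.83), Esd (7.55, nearest 7.97), Gjb2 (10.48, nearest 10.90) and Rheb (9.74, nearest 9.93). The other Rapa-2 males that stood apart were male 2 in Atp5g1 (12.45, nearest 12.74) and Becn1 (8.14, nearest 8.35), male 5 in Gss (8.64, nearest 8.52), male 6 in Psma4 (11.80, nearest 12.02) and Lep (7.27, nearest 7.10), male 1 in Klf10 (6.99, nearest 6.88) and male 3 in Xist (6.55, nearest 6.70).

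The diet effect differed between the sexes by the interaction itself for 2543 transcripts, for the array median before normalization (20.14, permutation test, adjusted p = 0.00831) and for the percent of probes detected (-2.307, permutation test, adjusted p = 0.0243). It passed with opposite signs in females and males for Nrp1 (-0.55), Cmtm6 (-0.53) and Klhl9 (-0.43).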

How the results depend on the processing

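The number of transcripts passing the interaction was 2543 with all Rapa males, 2439 without the Rapa-1 males and 4528 without the Rapa-2 males. It moved by over 1.5 times under these alternatives: with all males, 4253 with median scaling, 4264 with the array median as a covariate, 492 with the percent of probes detected as a covariate, 0 with the number run as a random block (1132 at an unadjusted p under 0.05), 801 with control males M366 to M374 only, 3831 with control females F651 to F659 only and 583 with control females F682 to F695 only. Without the Rapa-1 males it was 5226 with median scaling (16.5% higher, against 50.1%), 1568 with the percent detected, 1409 with the run block, 1405 with control males M366 to M374 only and 3995 with the signal at which the brightest 0.1% of probes begin as a covariate, an alternative chosen after seeing the data. Without the Rapa-2 males it was 2830 with the percent detected and 2987 with the run block, and median scaling gave 3187, of which 5.77% were higher, against 54.99%. Each run of animal numbers holds 1 group, with Rapa-1 and Rapa-2 males as separate runs, so the labels do not separate run from group. The cause of these changes was not tested.

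Leaving out arrays, chosen after seeing the data, gave 1970 (without control females 2 and 3) to 3053 (without Rapa females 1 and 2) with all males. Of the 91 named genes that passed, 34 still passed with control females F682 to F695 only, 29 with the percent detected, 42 with control males M366 to M374 only, 58 with median scaling, 45 without the Rapa-1 males and 77 without the Rapa-2 males. Reversed signs without the Rapa-2 males were those of Idh2 (-0.24), Otc (-0.027), Eif2s3y (-0.10), Med28 (-0.063), Esd (-0.34), Skp1 (-0.29) and 0610009B22Rik (-0.32), without the Rapa-1 males that of Gjb2 (0.10), and under median scaling those of Cox8a (-0.0023), Cyp2d10 (-0.057), Prdx2 (-0.038), Becn1 (-0.037) and Apoa2 (-0.027). Of 799 listed genes, 166 passed with all males and 288 without the Rapa-2 males. The array median's interaction was 4.18 (adjusted p = 0.41) without the Rapa-2 males, and that of the brightest 0.1% signal was 9382 without the Rapa-1 and -5961 without the Rapa-2 males, beside 1120 with all. With the replicate number as a replicate block 2588 passed. The numbers do not pair animals, and deviations of same-numbered animals correlated at 0.03 on average over 96 pairs.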

Other observations

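A set of transcripts chosen after the values were seen describes the Rapa-2 males. In 136 transcripts every Rapa-2 male lay over 1 log2 unit below every other male, and in 0 above. In 126 of the 136 all Rapa-2 males lay within the range of the females, and in 125 every female was below every Rapa-1 and control male. The set holds genes of many functions, among them Aldh6a1 (valine breakdown), Hadhb, Idh2, Uqcrb (respiratory complex III), Hprt (purine salvage), Ctnnb1 (beta-catenin), Pabpc1 (which binds poly(A) tails), Skp1 and Esd. Only 20 of the 136 passed the interaction with all Rapa males, 18 of them higher, while 132 passed without the Rapa-1 males and 126 without the Rapa-2 males. They made up 107 of the 181 transcripts over 2-fold higher without the Rapa-1 males.

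Other probes of the same genes did not show the same arrangement in most cases. Of 127 genes in the set, 47 had other tested probes, 81 in all, and in 14 of these 81 every Rapa-2 male lay below every other male. The Rapa-2 minus control male difference had a median of -1.88 over the set and of 0.09 over the 81 other probes. The interaction without the Rapa-1 males had a median of 1.38 over the set and of -0.01 over the other probes. Esd was such a gene, with a second probe at 0.03 in the fit of all arrays beside 0.75. The cause of the difference between probes was not tested.

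Some lists not described above held single passing genes with a role in stress and transcription. No share below was far above those of all genes, 10.4% higher and 9.89% lower. Of 30 heat shock and unfolded protein genes, 2 passed higher (6.67%) and 3 lower (10.0%), with Ddit3 (CHOP, a transcription factor of prolonged endoplasmic reticulum stress) at 0.43 and the disulfide isomerase Pdia3 at -0.47. Of 21 nuclear receptors and liver transcription factors, 2 passed higher (9.52%), Nr1i3 (the receptor CAR, which regulates Cyp2b genes) at 0.62 and Nr1h3 (LXR alpha) at 0.41. Of 19 clock genes, 2 passed lower (10.5%), Clock among them at -0.37. Mcl1, an inhibitor of apoptosis, differed by -0.74 (limma, adjusted p = 0.00173).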
